A study of Homo sapiens with 6 samples.

Results

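The genes described here encode the proteasome: the subunits of its core and caps, the factors that assemble it, its activators and its inhibitor. They were taken by name as the protein-coding genes of GENCODE release 29 whose symbol is PSMA to PSMG followed by a number, together with POMP, which gave 49 of the 58780 human genes in the tables. RNA was sequenced from HCT116, a human colorectal carcinoma line, in 3 libraries after 16 h of auxin and in 3 control libraries with DMSO. Auxin is a plant hormone used with degron-tagged cell lines to remove the tagged protein. The labels name neither the tagged protein nor the clone, do not say whether the DMSO cells carry the tag, and call the libraries biological replicates without saying how the cultures were grown. If the replicates shared a culture, the p-values cover only the spread between these libraries. RNA was total RNA depleted of ribosomal RNA.

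The 26S proteasome is the main ATP-dependent protease of the cytosol and nucleus and degrades proteins marked with ubiquitin. Its 20S core is a barrel of alpha rings (PSMA genes) around beta rings (PSMB genes), in which PSMB5, PSMB6 and PSMB7 carry the catalytic sites. The 19S cap has a base, with a ring of ATPases (PSMC genes) and the scaffold subunits PSMD1 and PSMD2, and a lid whose subunit PSMD14 removes ubiquitin. Cells keep subunit genes in balance in part through the transcription factor NFE2L1, which accumulates when proteasome activity is low, and interferon-exposed cells exchange the catalytic subunits for PSMB8, PSMB9 and PSMB10.

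Libraries held 234038000 to 625895000 expected counts, and replicate 1 was the deepest in both groups. Of 7 listed epithelial and colorectal markers, the epithelial genes EPCAM, CDH1, KRT8, KRT18 and KRT19 were expressed, while CDH17 and VIL1 stayed at or below 0.05 TPM. The summed level of the 7 was 1724 to 2374 TPM in DMSO and 2207 to 2646 TPM in auxin libraries. The 4 leukocyte markers summed to at most 0.01 TPM, the 3 endothelial markers to at most 0.08 TPM and the 4 fibroblast markers to 0.62 to 2.78 TPM, mostly COL1A1. Bulk RNA cannot tell fewer cells of a type from less RNA per cell.

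The genes of the proteasome did not move together. Of the 47 that passed the filter on low counts, 9 rose and 13 fell after auxin and 25 were not called (edgeR quasi-likelihood test, Benjamini-Hochberg adjusted p under 0.05). Over all 19725 genes tested, 52.3% were called, 25.4% higher and 26.9% lower, and the 22 calls among 47 proteasome genes lie close to that. PSMA8 and PSMB11, which are the testis and thymus subunits, had at most 0.018 CPM in any library and were not tested. The median log2 fold change was 0.05 over the 47 genes and 0.02 over all genes; the first was 0.17 under upper-quartile scaling and -0.10 on the log2(TPM + 1) scale. The fold changes were modest: 3 genes, PSMB10, PSMC5 and PSMD4, fell at least 2-fold and none rose as much, against 13.3% of all genes that fell and 6.55% that rose by that amount.

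The calls of lower level held better than the calls of higher level. With the replicate number as a block, 22 genes were called higher and 18 lower, against 35.5% and 34.4% of all genes. Upper-quartile scaling, which moved the median of all genes up by 0.12 on the log2 scale, gave 17 higher and 12 lower calls, against 33.1% and 22.4% of all genes (55.5% in either direction). limma on log2(TPM + 1) gave 0 higher and 10 lower calls, with 1 and 16 genes at an unadjusted p under 0.05. Without DMSO replicate 2 edgeR called 2 genes higher and 12 lower. No called gene changed its sign in any of the 19 alternatives, and 8 of them, PSMB4, PSMB10, PSMC3, PSMC4, PSMC5, PSMD4, PSMG4 and PSME2, were called in every alternative, all as lower.

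**Figure D1:**
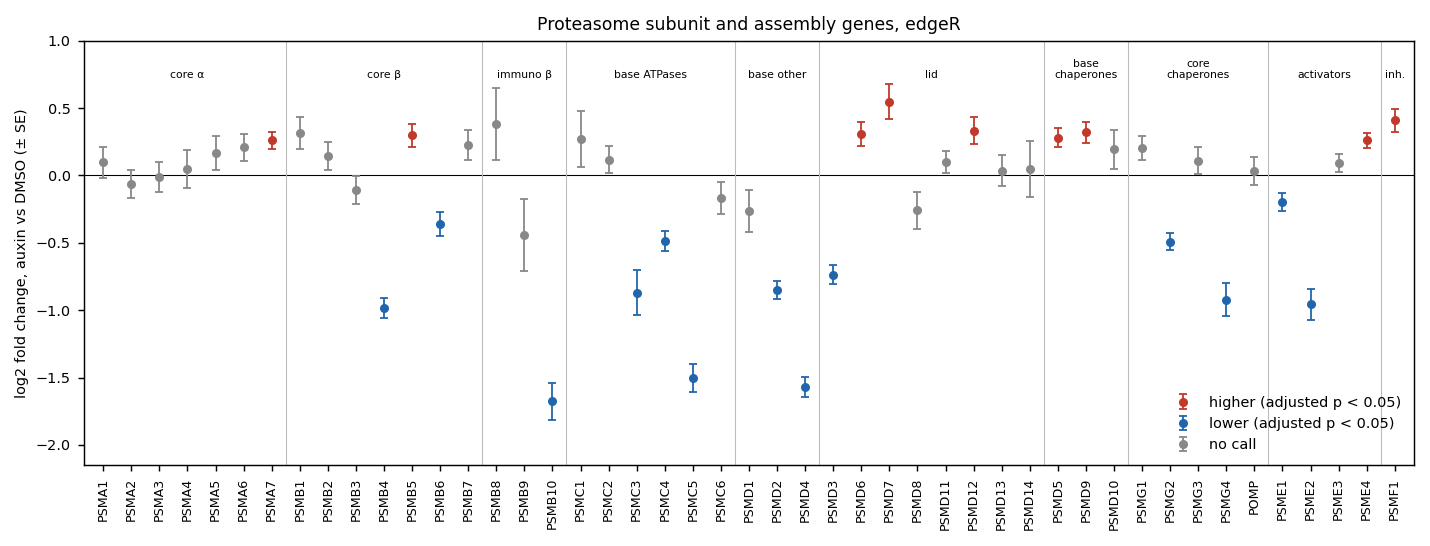
Log2 fold change of auxin against DMSO for the 47 tested genes (y axis, points with SE from edgeR), ordered by class along the x axis and coloured by call. The lower calls lie between -0.20 and -1.68, with 5 in the base and 2 each in the constitutive beta ring, the core chaperones and the activators. The 9 higher calls lie between 0.26 and 0.55.

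The alpha ring of the core, which forms the gate through which substrates enter, stayed close to its control level. Its 7 tested genes had log2 fold changes from -0.07 to 0.26 and a median of 0.10, which was -0.09 on the log2(TPM + 1) scale. PSMA7, the only alpha gene called, had 121, 117 and 128 CPM in DMSO replicates 1, 2 and 3 and 154, 144 and 141 CPM in the auxin replicates. All 3 auxin libraries lay above all 3 DMSO libraries. The log2 fold change was 0.26 ± 0.06 (SE, n = 3 per group), with an adjusted p of 0.010 by edgeR. On log2(TPM + 1) the adjusted p of PSMA7 was 0.77. With the replicate block PSMA1, PSMA5 and PSMA6 were called higher as well, with log2 fold changes of 0.10, 0.17 and 0.21 without it. PSMA1, PSMA2 and PSMA6 share 15471, 15318 and 38842 bases on the same strand with AC018523.2, AC010132.3 and AL121594.1. The division of reads within each of these pairs is uncertain.

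Of the 7 genes of the constitutive beta ring, 1 rose and 2 fell, where 25.4% and 26.9% of all genes did. PSMB4, a beta subunit without catalytic activity, fell from 100.2, 107 and 116 CPM in DMSO replicates 1, 2 and 3 to 56.0, 51.6 and 55.9 CPM after auxin. The groups did not overlap, the log2 fold change was -0.98 ± 0.07 and the adjusted p was 4.05e-05. PSMB5, the chymotrypsin-like catalytic subunit, went from 85.1, 91.5 and 99.8 CPM to 105, 113 and 122 CPM. Each auxin library of PSMB5 was above every DMSO library, with a log2 fold change of 0.30 ± 0.08 and an adjusted p of 0.021, which became 0.058 with offsets corrected for GC content. PSMB6, the caspase-like catalytic subunit, fell by 0.36 on the log2 scale (adjusted p = 0.013), and this call was lost with the GC correction (adjusted p = 0.17). PSMB7, the trypsin-like catalytic subunit, had a log2 fold change of 0.23 and was not called. PSMB7, PSMB1 and PSMB2 were called higher with the block and under upper-quartile scaling, and PSMB3 was called lower with the block.

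The immunoproteasome subunits were scarce in these cells. PSMB8 had 0.04 to 0.07 TPM in every library, PSMB9 had 3.83 to 4.30 TPM in DMSO and 2.11 to 3.48 TPM in auxin libraries, and PSMB10 had 5.41 to 9.73 TPM in DMSO and 1.61 to 1.82 TPM in auxin libraries. PSMB9 had a log2 fold change of -0.44 (adjusted p = 0.21), called lower with the block (adjusted p = 0.0034). Counts of PSMB10 were 4.08, 3.06 and 3.51 CPM in DMSO replicates 1, 2 and 3 and 1.11, 1.08 and 1.14 CPM after auxin. The log2 fold change was -1.68 ± 0.14 with an adjusted p of 6.94e-05, the largest fall among the 47 genes. With the GC correction it was -1.10, smaller than the falls of PSMD4 and PSMC5 (-1.55 and -1.49). PSMB10 shares 1516 bases on the same strand with AC040162.1, so the division of reads between these 2 genes is uncertain. Per length, PSMB10 stood at 4.88 ± 0.93% of the level of its constitutive counterpart PSMB7 in DMSO and at 1.12 ± 0.10% after auxin (SD, n = 3). The exact permutation test of the log2 ratio, two-sided, gave p = 0.1, the smallest that 3 against 3 libraries allow, and 0.3 after adjustment over the 3 ratios. PSMB9 stood at 4.03 ± 0.49% of PSMB6 in DMSO and 3.81 ± 0.97% after auxin (exact permutation p = 0.8, adjusted 0.8). PSMB8 stood at 0.053 ± 0.007% of PSMB5 in DMSO and 0.063 ± 0.011% after auxin (exact permutation p = 0.3, adjusted 0.45).

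The base of the cap held the largest concentration of lower calls. Of its 9 genes, 5 fell and none rose, with a median log2 fold change of -0.49 against 0.02 over all genes, of which 26.9% fell and 25.4% rose. By edgeR 0 base genes were higher at an unadjusted p under 0.05, while 1, PSMC2, was called higher under upper-quartile scaling (33.1% of all genes) and 2, PSMC1 and PSMC2, with the block (35.5%). The ATPases form a hexamer with 1 copy of each, yet their genes took different courses. PSMC5, the ATPase also called RPT6, had 117, 137 and 152 CPM in DMSO replicates 1, 2 and 3 and 45.9, 46.4 and 51.2 CPM in the auxin replicates. The lowest DMSO library was above 2 times the highest auxin library, the log2 fold change was -1.50 ± 0.10 and the adjusted p was 3.19e-05, with 0.0015 as the highest over all alternatives. PSMC5 lies on chromosome 17 from 63827152 to 63832026 (GRCh38, plus strand), where FTSJ3 overlaps it by 2861 bases on the opposite strand. FTSJ3 fell by 2.61 on the log2 scale, and it is not stated whether counting used the strand, so reads of the 2 genes may not be fully told apart.

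The ATPases PSMC3 and PSMC4 fell by 0.87 (adjusted p = 0.0039) and 0.49 (adjusted p = 0.0015) on the log2 scale, and PSMC4 by 0.32 with the GC correction (adjusted p = 0.035). PSMC3 went from 54.9, 72.9 and 82.5 CPM to 32.1, 39.9 and 43.1 CPM, and the groups did not overlap. PSMC1, PSMC2 and PSMC6 had log2 fold changes of 0.27, 0.12 and -0.17 and were not called, but with the block the first 2 were called higher and PSMC6 lower. The RNA levels per length of these genes shifted against each other, while the subunits in the ring were not measured. PSMC5 RNA was at 64.6 ± 1.97% of the PSMC2 level in DMSO and 24.03 ± 2.50% after auxin (SD, n = 3). For PSMC3 the same ratio was 33.2 ± 3.19% and 17.6 ± 0.78%, and for PSMC4 it was 46.9 ± 2.16% and 30.8 ± 2.87%.

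Among the base subunits without ATPase activity, PSMD4, the ubiquitin receptor RPN10, fell from 75.5, 76.2 and 84.0 CPM in DMSO replicates 1, 2 and 3 to 26.0, 25.2 and 28.2 CPM after auxin. The libraries within a group differed far less than the groups, with a log2 fold change of -1.57 ± 0.07 and an adjusted p of 6.08e-06. PSMD4 had the smallest adjusted p of the 47 genes. PSMD2, the scaffold RPN1, fell from 326, 341 and 374 CPM to 194, 189 and 194 CPM (log2 fold change -0.85 ± 0.07, adjusted p = 6.46e-05), and the adjusted p was 0.058 on log2(TPM + 1). PSMD1, the scaffold RPN2, had a log2 fold change of -0.26 and was not called, but was called lower with the block and with the GC correction. ADRM1, the ubiquitin receptor RPN13, whose name falls outside the symbol rule, fell by 1.29 (adjusted p = 1.62e-05), and by 0.47 with the GC correction (adjusted p = 0.012).

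The lid moved less than the base, with a median log2 fold change of 0.07 against -0.49. Of its 8 genes, 3 rose and 1 fell, where 25.4% of all genes rose and 26.9% fell. Counts this small do not set the lid apart from those shares. PSMD7, which pairs with the deubiquitinase PSMD14, had 98.6, 118 and 125 CPM in DMSO replicates 1, 2 and 3 and 139, 177 and 182 CPM in the auxin replicates. Each auxin library was above all DMSO libraries and the log2 fold change was 0.55 ± 0.13 (adjusted p = 0.0097), the largest rise among the 47 genes. PSMD12 and PSMD6, which are structural lid subunits, rose by 0.33 (adjusted p = 0.026) and 0.31 (adjusted p = 0.022), and PSMD6 lost the call with the GC correction (adjusted p = 0.21). PSMD3 went from 163, 164 and 183 CPM to 100.1, 98.3 and 108 CPM. It fell by 0.74 on the log2 scale with an adjusted p of 1.42e-04 and by 0.28 with an adjusted p of 0.074 once GC content was corrected. PSMD14 itself had a log2 fold change of 0.05 ± 0.21, and PSMD8, PSMD11 and PSMD13 had values of -0.26, 0.10 and 0.04 without a call. With the block PSMD8 was called lower and PSMD11 higher.

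**Figure D2:**
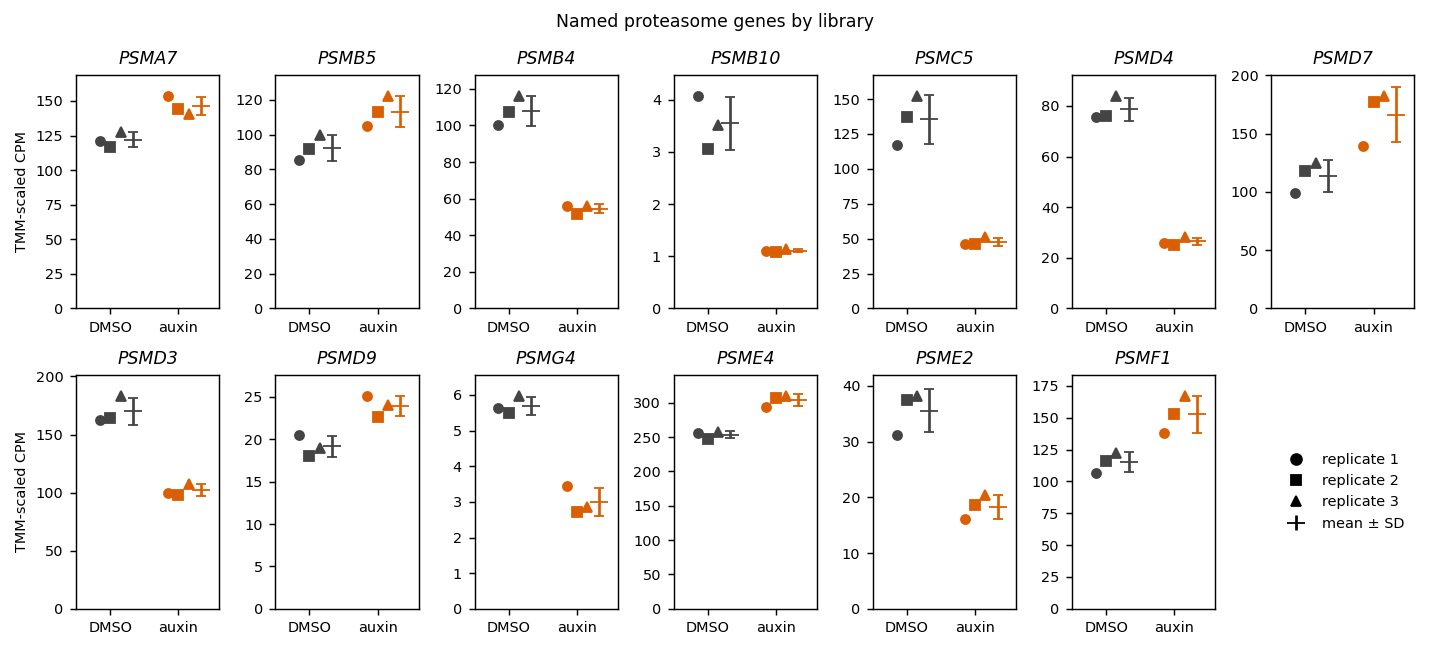
TMM-scaled CPM (y axes, each from 0) of 13 proteasome genes in each library, with replicates 1 to 3 as symbols and the mean and SD of 3 libraries to the right. In each panel the auxin libraries lie wholly above or wholly below the DMSO libraries, and PSMC5, PSMD4 and PSMB10 fall 2.84-fold, 2.97-fold and 3.20-fold.

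Of the 8 assembly chaperones, 2 rose and 2 fell, close to the 25.4% and 26.9% of all genes that did. The base chaperones PSMD5, PSMD9 and PSMD10, which hold ATPase pairs until the base is complete, had log2 fold changes of 0.28, 0.32 and 0.19, the first 2 called higher. With the GC correction PSMD5 was at 0.15 and was not called (adjusted p = 0.062), and PSMD10 was called with the block. PSMD9 had 20.5, 18.1 and 18.9 CPM in DMSO replicates 1, 2 and 3 and 25.1, 22.7 and 24.03 CPM after auxin, with no overlap (adjusted p = 0.0099 by edgeR, 0.85 on log2(TPM + 1)). PSMD9 shares 29489 bases on the same strand with AC069503.2, so the division of reads between them is uncertain. Of the 5 core chaperones, PSMG4 and PSMG2 fell. PSMG4, which works with PSMG3 to set up the alpha ring, went from 5.62, 5.48 and 5.97 CPM to 3.44, 2.72 and 2.84 CPM (log2 fold change -0.92 ± 0.12, adjusted p = 6.1e-04). PSMG2 fell by 0.49 (adjusted p = 6.0e-04 by edgeR, 0.077 on log2(TPM + 1)). CEP76, which overlaps PSMG2 by 40945 bases on the opposite strand, fell by 0.89, and reads of these genes may not be fully told apart. PSMG1, the partner of PSMG2, had a log2 fold change of 0.20. PSMG1 was not called, but was called higher with the block and under upper-quartile scaling. PSMG3, with a log2 fold change of 0.11, was called higher with the block and with the GC correction, where it reached 0.56. PSMG3-AS1, which overlaps PSMG3 by 933 bases on the opposite strand, rose by 1.74, and their reads may not be fully told apart. POMP, the chaperone that matures the catalytic beta subunits, had 139 to 173 CPM in DMSO and 147 to 177 CPM in auxin libraries, and the ranges overlapped.

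The activators replace or join the 19S cap at the end of the core. PSME2, which forms the PA28 ring with PSME1, had 31.1, 37.4 and 38.2 CPM in DMSO replicates 1, 2 and 3 and 16.1, 18.5 and 20.4 CPM after auxin, so the groups did not overlap. Its log2 fold change was -0.96 ± 0.12 (adjusted p = 4.14e-04), and RNF31, which shares 888 bases with it on the opposite strand, fell by 2.51. PSME1 fell by only 0.20 (adjusted p = 0.043), a call lost in 10 of 19 alternatives. PSME3, the nuclear activator PA28 gamma, had a log2 fold change of 0.09 and was not called, but was called higher with the block and under upper-quartile scaling. BECN1, which overlaps PSME3 by 8966 bases on the opposite strand, rose by 0.82, and their reads may not be fully told apart. PSME4, the nuclear activator PA200, rose by 0.26 (adjusted p = 0.0062) from 256, 247 and 257 CPM to 294, 308 and 310 CPM. With the GC correction the rise of PSME4 was 0.13 and was not called (adjusted p = 0.10). PSMF1, the inhibitor PI31, had 107, 116 and 122 CPM in DMSO replicates 1, 2 and 3 and 138, 153 and 167 CPM in the auxin replicates. All auxin libraries were above all DMSO libraries (log2 fold change 0.41 ± 0.09, adjusted p = 0.0066, and 0.25 with the GC correction, adjusted p = 0.045).

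In summed TPM the 14 constitutive core genes took 2463 ± 279 in DMSO and 2285 ± 136 after auxin (SD, n = 3). The lid took 1040.3 ± 129 and 1022 ± 61.7. For the base the sums were 1118, 903 and 1051 TPM in DMSO replicates 1, 2 and 3 and 765, 719 and 803 TPM in the auxin replicates, so that the base alone of these 3 had no overlap. Over all 49 genes the summed level was 4778 to 6077 TPM in DMSO and 4539 to 5074 TPM in auxin libraries. Per length, PSMA4, PSMB3 and PSMA1 were the highest in DMSO, with mean TPM of 324, 274 and 247, and among the constitutive core genes the highest mean was 3.79 times the lowest in DMSO and 4.67 times after auxin. In the base that ratio was 4.38 in DMSO and 9.10 after auxin.

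**Figure D3:**
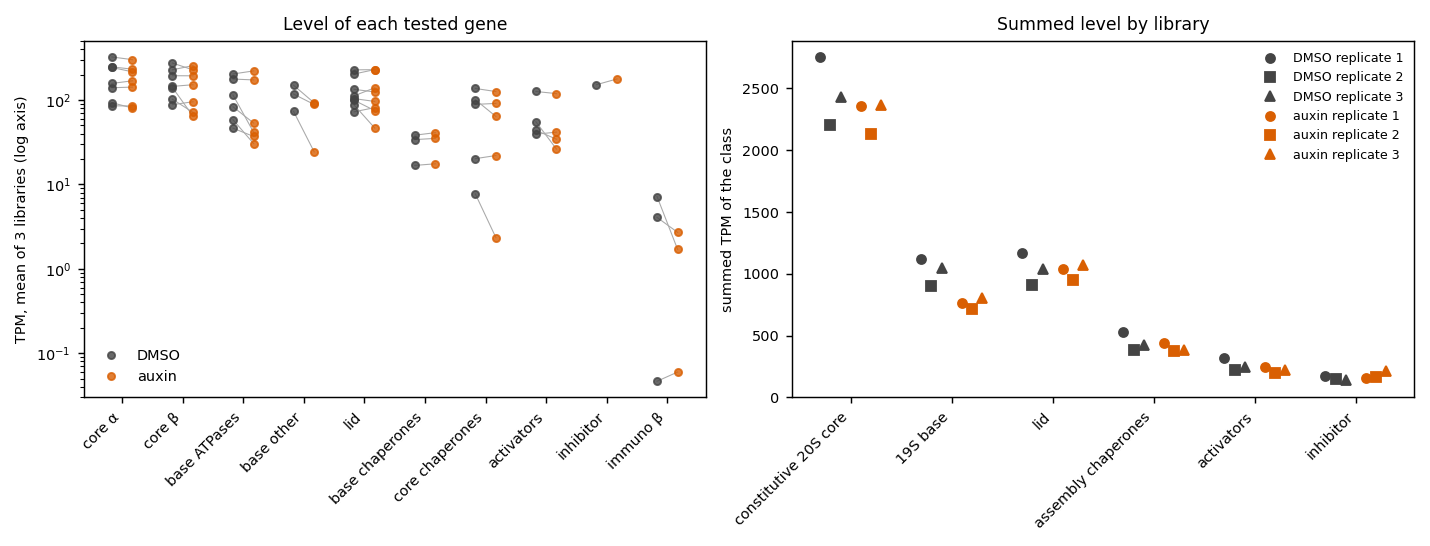
Left, mean TPM of each tested gene (log axis) in DMSO and auxin libraries by class, with a line joining the same gene. Right, summed TPM of 6 classes in each library; the sums of the 19S base lie between 903 and 1118 in DMSO and between 719 and 803 after auxin, and those of the other classes overlap.

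Transcripts of the proteasome genes changed in composition as well as in level. The share of each transcript in its gene's expected counts was compared with limma on the log odds of the share. Of 359 transcripts tested from 45 genes, 36 had a higher and 9 a lower share after auxin, against 6.49% and 4.10% of all 75590 transcripts. Leaving out DMSO replicate 2, DMSO replicate 3 or auxin replicate 3 gave 15, 18 and 20 higher shares, and lower shares fell to 0 and 2 without the first or the second of these, with 23 at an unadjusted p under 0.05 without DMSO replicate 2. The nominal edgeR diffSpliceDGE test gave 19 and 4. The deposited shares come from an estimation step that divides shared reads among annotated transcripts, so they describe the annotation's models rather than whole molecules.

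PSMC5 had the most changed exon. Exon 5 of 12 of transcript PSMC5-202, at chr17:63830133-63830189 on the plus strand of GRCh38, is 57 coding bases or 19 codons long. PSMC5-213 and PSMC5-217 are the annotated transcripts that leave it out. In PSME3 skipping changed at exon 7 of 11, at chr17:42838692-42838799 on the plus strand, with 108 coding bases or 36 codons, which PSME3-203 lacks while otherwise keeping the coding sequence of PSME3-201. Both exons are shown because their skipping is what changed. They come from the GENCODE release 29 transcripts, 5′ to 3′, with the skipped exon in capitals between the last 20 bases of the exon before and the first 20 of the exon after.
PSMC5 exon 5: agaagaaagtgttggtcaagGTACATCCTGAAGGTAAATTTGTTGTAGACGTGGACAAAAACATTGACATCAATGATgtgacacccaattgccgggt
PSME3 exon 7: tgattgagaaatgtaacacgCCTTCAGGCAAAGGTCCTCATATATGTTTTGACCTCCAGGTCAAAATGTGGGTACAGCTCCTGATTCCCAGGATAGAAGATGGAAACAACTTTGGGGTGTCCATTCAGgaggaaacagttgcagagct

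Transcripts without PSMC5 exon 5 made up 8.95, 8.61 and 9.46% of the TPM that includes or skips it in DMSO replicates 1, 2 and 3 and 35.3, 36.3 and 30.8% after auxin. Skipping was above 3 times the highest DMSO value in every auxin library. In TPM, the transcripts with the exon went from 101 to 24.1 on average, while those without it were at 10.0 ± 1.54 in DMSO and 12.5 ± 1.36 after auxin (SD, n = 3), so the drop of PSMC5 lay in the transcripts with the exon. PSMC5-213 held 4.70, 4.26 and 4.78% of the gene's counts in DMSO and 16.1, 18.9 and 15.1% after auxin (adjusted p = 0.0015 by limma, at most 0.014 over all alternatives). Its model is a fragment of 7 exons that starts at another first exon and ends inside exon 8, so nothing is known from it about the rest of the molecule. PSMC5-202, the most abundant transcript, held 63.4, 79.7 and 81.9% in DMSO and 40.5, 53.2 and 59.1% after auxin. The groups did not overlap, but the share was not called (adjusted p = 0.084), and it was called with the replicate block (adjusted p = 0.0082).

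For PSME3 the level of the gene hardly differed while its splicing did. Of the TPM that includes or skips exon 7, skipping took 2.11, 1.97 and 2.21% in DMSO replicates 1, 2 and 3 and 16.8, 18.8 and 18.3% after auxin. Only 1 annotated transcript counted as including this exon, so other transcripts of the gene are outside this percentage. The whole gene had a mean of 126 TPM in DMSO and 119 TPM after auxin. TPM without the exon was 1.41 ± 0.35 in DMSO and 11.9 ± 1.03 after auxin (SD, n = 3), and TPM with it was 65.7 ± 15.3 and 54.4 ± 7.82. PSME3-203 rose from 1.48 to 1.63% of the gene's counts in DMSO to 12.1 to 14.6% after auxin, with an adjusted p of 4.19e-04 by limma that stayed at or below 0.0065 in all alternatives. A scan of 80 internal exons with an annotated skipping transcript, in 28 of the genes, was added after these values were seen and has no test. Its median change was 0 points, 3 exons gained at least 5 points of skipping and none lost as much. The third was exon 2 of PSMG4, at 2.91 ± 0.37% in DMSO and 13.1 ± 2.78% after auxin, but its skipping transcripts had only 0.22 and 0.27 TPM. Exon 8 of PSME2 followed with 6.26 ± 0.48% and 10.4 ± 1.49%.

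Retained introns were the other change, seen in some of the genes. The summed share of transcripts annotated as retaining an intron had a higher mean after auxin in 14 of 36 tested genes. Its median change was -0.03 points. Over all 8037 genes with such transcripts the mean was higher in 4343, with a median change of 0.02 points. Of 126 tested transcripts annotated as retaining an intron, 22 had a higher and 1 a lower share after auxin, where 12.7% and 1.13% of all 15691 such transcripts did. The 22 came from 8 genes, with 7 in PSMD2, 4 each in PSMB4 and PSMC5 and 3 in PSMD4. Transcripts of this class together held 10.2, 8.35 and 7.04% of the counts of PSMB4 in DMSO replicates 1, 2 and 3 and 30.1, 19.6 and 21.8% after auxin. For PSMC5 the same sum was 5.08, 3.32 and 3.31% in DMSO and 19.4, 12.5 and 12.1% after auxin. PSMD2 went from 1.26 to 2.30% in DMSO to 6.17 to 11.9%, PSMD4 from 1.80 to 1.91% to 5.94 to 8.19%, and PSMD3 from 0.89 to 1.84% to 3.30 to 6.27%. In each of these 5 genes all auxin libraries were above all DMSO libraries. The share was highest in replicate 1 of the auxin libraries for all 5, and replicate 1 was also the deepest library.

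All 5 genes were among those called lower. Of the 12 genes called lower that have such transcripts, the summed share was above every DMSO library in every auxin library for 5, where 42.7% of all genes called lower had this. None of the 6 genes called higher showed it, and 5.72% of all genes called higher did. Of the 18 without a call it was seen in 3, against 11.4% of all genes without a call, and these were genes whose mean shares moved by at most 1.04 points. Over all 8037 genes with such transcripts it was 21.7%. PSMC1, with 22.0 ± 1.80% in DMSO and 21.7 ± 1.06% after auxin, carried a high share in both groups. In PSMB10 transcripts of this class held 74.1 ± 4.59% of its counts in DMSO and 67.9 ± 6.86% after auxin, with PSMB10-202 up by 16.1 points (adjusted p = 0.015) and PSMB10-203 down by 24.5 points (adjusted p = 0.037); these calls were lost in 5 and 6 of 13 alternatives. Also among the lower genes, PSME1 had 1.36 ± 0.49% in DMSO and 0.53 ± 0.11% after auxin, without overlap.

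A pair of short introns is shown because called transcripts hold them whole: intron 3 of PSMB4-201, at chr1:151400589-151400763 on the plus strand, and intron 5 of PSMB10-201, at chr16:67935479-67935581 on the minus strand (GRCh38). They were read from PSMB4-206 and PSMB10-202 in GENCODE release 29, 5′ to 3′, with the intron in capitals between 20 bases of each flanking exon.
PSMB4 intron 3: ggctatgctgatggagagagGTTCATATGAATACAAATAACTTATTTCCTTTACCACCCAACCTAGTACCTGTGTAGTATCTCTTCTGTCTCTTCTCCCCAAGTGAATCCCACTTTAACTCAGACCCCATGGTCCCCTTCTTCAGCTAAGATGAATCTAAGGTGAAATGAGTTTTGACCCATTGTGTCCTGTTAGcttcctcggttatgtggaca
PSMB10 intron 5: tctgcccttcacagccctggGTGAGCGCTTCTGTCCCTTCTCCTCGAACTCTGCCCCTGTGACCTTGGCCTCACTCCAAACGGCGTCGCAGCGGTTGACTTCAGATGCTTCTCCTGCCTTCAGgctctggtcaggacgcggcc

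The PSMB4 intron is 175 bases long with 41.1% GC and the PSMB10 intron 103 bases with 59.2% GC, and both begin with GT and end with AG, the common splice signals. PSMB4-206 rose from 3.86, 3.14 and 2.45% of the counts of PSMB4 in DMSO replicates 1, 2 and 3 to 11.4, 8.23 and 8.28% after auxin (adjusted p = 0.011 by limma). PSMB4-201, the full coding transcript, fell from 89.8, 91.7 and 93.0% to 69.9, 80.4 and 78.2% (adjusted p = 0.011). In PSMG4 the coding transcript PSMG4-206 fell by 32.2 points (adjusted p = 0.012), while PSMG4-209, whose last exon holds the 3831 bases of intron 2 whole although it is annotated as coding, rose by 27.2 points from 23.3, 15.5 and 14.9% to 50.7, 43.5 and 41.2% (adjusted p = 0.011). PSMD4-202 fell by 6.93 points (adjusted p = 0.018), PSMD11-212 fell by 5.25 points (adjusted p = 0.023), PSMG3-203 rose by 19.5 points (adjusted p = 0.032) and PSMG4-210 rose from 2.84 to 3.36% in DMSO to 6.92 to 14.05% after auxin (adjusted p = 0.027). The call of PSMG4-210 was lost in 7 of 12 alternatives, that of PSMG3-203 in 6 of 13, that of PSMD11-212 in 5 and those of PSMG4-206 and PSMD4-202 in 4. PSMG3 also overlaps PSMG3-AS1 on the opposite strand, and their reads may not be fully told apart.

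**Figure D4:**
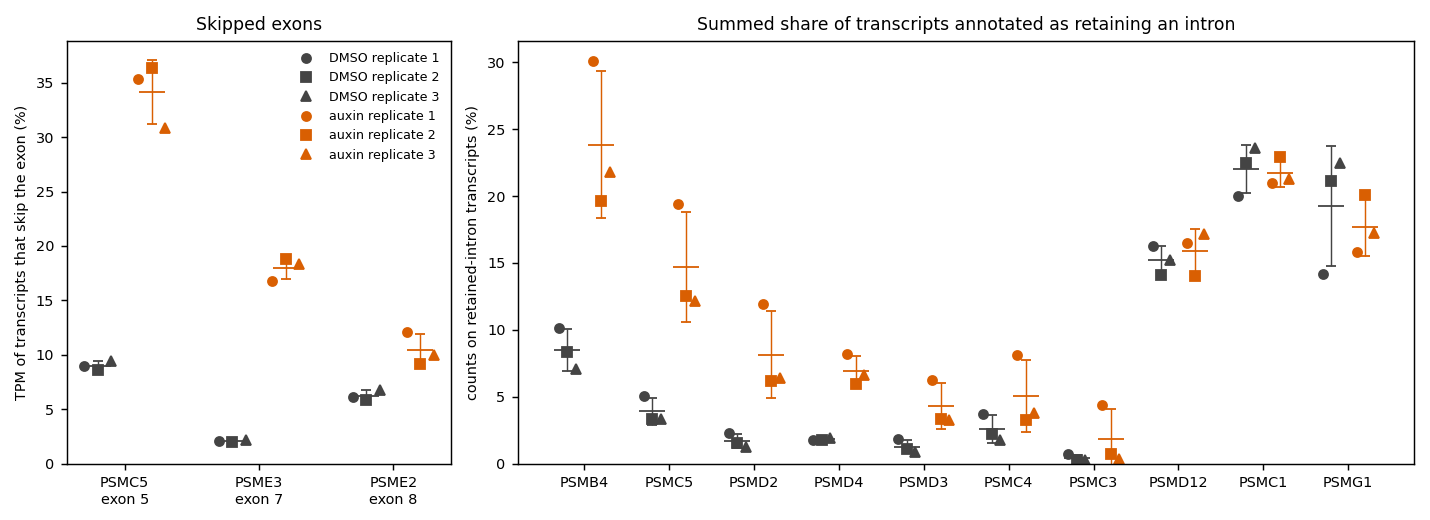
Left, share of skipping transcripts in the TPM that includes or skips an exon, in percent, for 3 exons in each library. PSMC5 exon 5 goes from 8.61 to 9.46% in DMSO to 30.8 to 36.3% after auxin. Right, percentage of a gene's expected counts on transcripts annotated as retaining an intron, for 10 genes with the mean and SD of 3 libraries per group; PSMB4 to PSMD3 separate the groups, PSMD12, PSMC1 and PSMG1 do not.

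The genes that fell had shorter introns than the others. In the most abundant coding transcript of each gene, the mean intron length had a median of 324 bases in the 13 genes called lower, 1620.4 bases in the 25 without a call and 2609.9 bases in the 9 called higher. Of the 9 tested proteasome genes with a mean intron under 600 bases, a limit set after these medians were seen, 8 were called lower and none higher, and of the 38 others 5 were called lower and 9 higher. The proteasome genes share this with coding genes at large, where 66.0% of 1319 genes with a mean intron under 600 bases and 30.4% of 12415 others were called lower. Across the 47 genes the log2 fold change had a Spearman rho of 0.43 with mean intron length and -0.36 with GC content, and across protein-coding genes the values were 0.35 and -0.36; the genes share libraries and are not independent replicates. With the most abundant transcript of any type, the definition tried first, the proteasome values were 0.41 and -0.23. Intron length and GC content vary together and their parts were not tested. The 5 lower genes above the limit were PSMG2, with a mean intron of 11003 bases and a fall of 0.49, PSMG4, with 4159 bases and a fall of 0.92, PSMD3, with 1364 bases and a fall of 0.74, PSMD4, with 1269.7 bases and a fall of 1.57, and PSMC4, with 885 bases and a fall of 0.49.

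**Figure D5:**
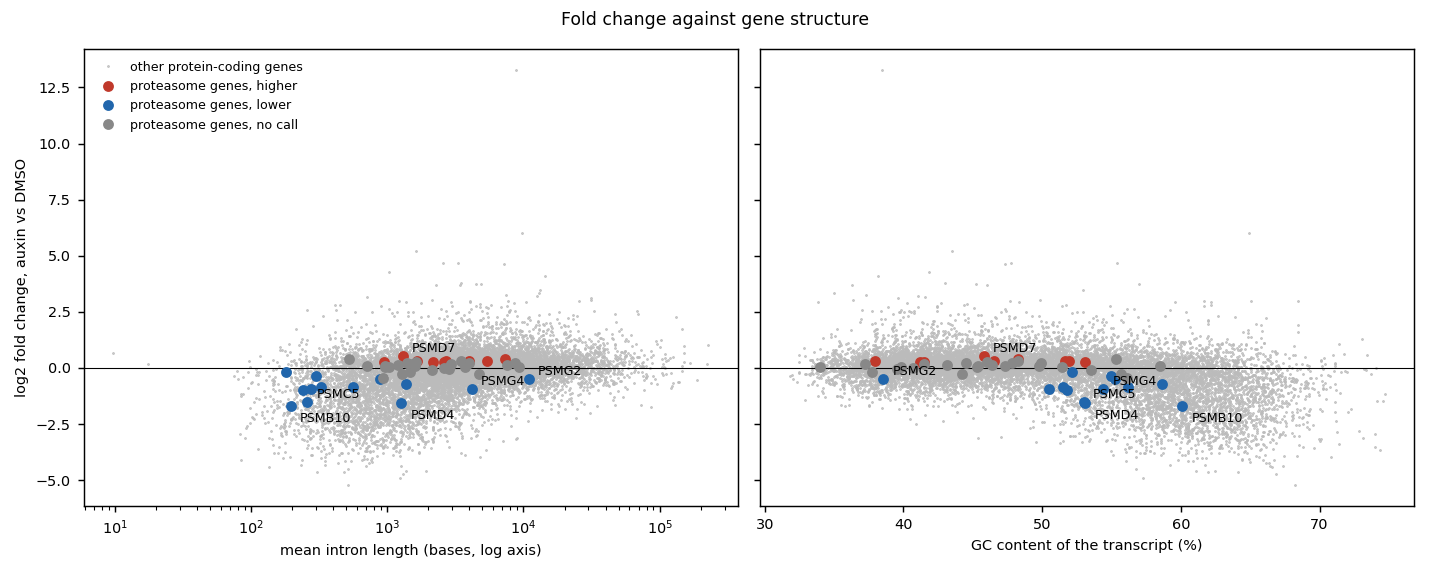
Log2 fold change of auxin against DMSO against mean intron length (left, log axis) and GC content of the transcript (right), for protein-coding genes (grey dots) and the 47 proteasome genes (large points, coloured by call). Lower calls lie mostly at short introns, and PSMG2 and PSMG4 have the longest introns among them.

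The control of proteasome genes by NFE2L1 runs through antioxidant response elements, and RefSeq promoter windows (GRCh38.p14, 250 bases before to 50 after a start) were available for 43 of the 49 genes. The letters TGACNNNGC, a core of that element, were found on either strand in the windows of 15 of the 43 genes, or 34.9%, against 16.1% of all 27305 genes with a window. Both directions hold them: 6 of 11 genes called lower with a window, 4 of 8 called higher and 5 of 22 without a call. CCAAT was found in 46.5% of the 43 genes and 39.7% of all genes. TTCNNNGAA, a GAS-type element, was found in 18.6% and 9.38%, and GGAAGTG, an ETS factor core, in 25.6% and 13.4%. Matches of different motifs overlapped in 1 gene, PSMC4, between the last 2 of these. To show that the same letters stand before genes that rose and genes that fell, 4 stretches follow, 5′ to 3′ on the gene's strand, with the match in capitals and 16 bases on either side: PSMD12 at chr17:67366718-67366758 (minus) and PSMD5 at chr9:120843032-120843072 (minus), both called higher, and PSMD3 at chr17:39980754-39980794 (plus) and PSME1 at chr14:24136092-24136132 (plus), both called lower. A match is not evidence of binding.
PSMD12: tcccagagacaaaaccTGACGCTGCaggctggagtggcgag
PSMD5: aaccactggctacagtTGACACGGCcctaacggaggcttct
PSMD3: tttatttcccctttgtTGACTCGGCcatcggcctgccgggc
PSME1: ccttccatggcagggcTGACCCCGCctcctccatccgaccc

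Around the proteasome, 43 further genes were tested, those of the ubiquitin-proteasome pathway together with 6 NFE2L2 targets. Of the 43, 17 rose and 9 fell, where 25.4% and 26.9% of all genes did. The block gave 24 and 14 calls (35.5% and 34.4% of all genes) and upper-quartile scaling 23 and 7 (33.1% and 22.4%). limma on log2(TPM + 1) gave 0 higher and 6 lower calls, with 5 and 7 at an unadjusted p under 0.05. Among 11 partners outside the symbol rule, 5 rose, among them PAAF1, a base assembly factor (log2 fold change 0.61, adjusted p = 0.0014), and the deubiquitinase USP14 (0.36, adjusted p = 0.013), while ADRM1 and PITHD1 fell. Of 9 regulators of proteasome gene transcription, 4 rose and 2 fell. NFE2L1 had 279, 293 and 313 CPM in DMSO replicates 1, 2 and 3 and 327, 354 and 372 CPM after auxin (log2 fold change 0.25 ± 0.08, adjusted p = 0.026, and 0.40 with the GC correction). The auxin libraries of NFE2L1 were all above the DMSO libraries, but the call was lost in 7 of 19 alternatives. NGLY1, which deglycosylates NFE2L1, rose by 0.65 (adjusted p = 0.0021), whereas SYVN1, an endoplasmic reticulum ubiquitin ligase that targets it, fell from 69.2, 52.6 and 49.0 CPM to 5.29, 3.15 and 3.09 CPM (log2 fold change -3.88 ± 0.26, adjusted p = 2.74e-05).

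Among the ubiquitin and E1 enzyme genes, UBA1, the main E1, fell by 0.87 (adjusted p = 9.26e-05) and UBA6 by 0.21 (adjusted p = 0.040), the latter not called under upper-quartile scaling (-0.09, adjusted p = 0.21). The ubiquitin genes RPS27A and UBB had log2 fold changes of 0.11 and -0.09 without a call. Of the shuttle and unfoldase genes, RAD23B, a shuttle that carries ubiquitylated proteins to the cap, rose by 0.50 (adjusted p = 0.0017) and had 212 to 433 TPM in DMSO and 262 to 454 TPM in auxin libraries. VCP, the unfoldase that extracts ubiquitylated proteins, rose by 0.35 (adjusted p = 0.0055), and FAF1, a cofactor of VCP, fell by 0.43 (adjusted p = 0.022). Of 6 NFE2L2 targets, NQO1, SRXN1 and TXNRD1 rose by 0.65, 0.67 and 0.59, and GCLC and GCLM were not called. HMOX1 fell by 0.42, a call lost with the GC correction (log2 fold change -0.01, adjusted p = 0.96).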

How the data were processed

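Per the file headers, the deposited tables of genes and transcripts give expected counts, which are estimates that need not be whole, and TPM, an abundance per length, in the layout of RSEM with posterior estimates. Per the submitters' processing notes, bcl2fastq 2.20, STAR, DESeq2 and GRCh38 were used; roles, annotation and use of strand are not given in the sources used here. All 58780 gene IDs matched GENCODE release 29. The 746 rows that name no gene held 0.000255 to 0.00111% of counts and were left out.

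Expected counts deposited by the authors were rounded, filtered with filterByExpr, scaled by TMM and tested with edgeR 4.0.16 (quasi-likelihood, Benjamini-Hochberg over 19725 genes). CPM are these counts with TMM factors. The prior count was 0.5 and a transcript needed 10 counts in 3 libraries for limma 3.58.1 to test the log2 odds of its share. TPM deposited by the authors gave levels per length. On simulated data edgeR recovered part of the changed genes, and the share test found none of them when few transcripts changed and part when many did, so absence of a call in shares says little. Ratios were compared with exact permutation tests over 20 assignments.

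The proteasome genes, the lists and the promoter motifs were chosen with earlier results of these data known. Named genes were, per class, the called genes of largest positive and negative log2 fold change, every gene called with at least 2-fold change, and PSMC5; named transcripts were called with a share difference of at least 5 points, or were the largest 2 of PSMC5. Other genes were named after their values were seen, and some pathway genes are not reported here. Same-numbered libraries deviated together from their group means (r = 0.861, 0.634 and 0.607 across genes), so the numbers may pair the libraries. DMSO 3 with auxin 2 also reached 0.607 and DMSO 2 with auxin 3 reached 0.398, so replicates 2 and 3 are not clearly set apart from each other. The main tests of genes, shares and ratios were unpaired, and the pairing entered only in alternatives. Libraries of a group differed by 35.5 to 587 chi-square units per degree of freedom, more than sampling noise. Alternatives were other scalings, filters and tools, GC-corrected offsets (added after the data were seen), the block, and each library left out.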

Additional observations from a re-analysis of the deposited data

How the results depend on the processing

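The number of proteasome genes called higher moved from 9 to 17 with upper-quartile factors, 17 with replicates 2 and 3 alone, 22 with the replicate block, 14 with the replicate block and GC-corrected offsets together, and 0 with limma on log2(TPM + 1) or log2(TPM + 0.1), the latter moving the median of all genes by -0.12, each with 1 gene at an unadjusted p under 0.05; leaving out single libraries gave 2 to 13. The number called lower was 10 to 18 in all settings and 12 to 14 with a library left out. Among the other pathway genes, counted with the NFE2L2 targets, higher calls went from 17 to 0 on both TPM scales (5 at an unadjusted p under 0.05). With a library left out they were 13 to 19. Lower calls went from 9 to 14 with the block and were 6 to 8 with a library left out. Member transcripts of higher share were 15 to 31 and of lower share 0 to 9 with a library left out, and 19 and 4 with nominal diffSpliceDGE. The log2 ratio of PSMB9 to PSMB6 ranged from -0.27 to 0.11 with a library left out, and was positive, 0.11, without auxin replicate 1, against -0.11 with all libraries; the ratios of PSMB8 to PSMB5 and PSMB10 to PSMB7 ranged from 0.16 to 0.41 and from -2.20 to -1.96. In the paired sign-flip test of these ratios the smallest p that 3 pairs allow is 0.25. Apart from the calls named in the report, the block removed no call among the named genes. The causes were not tested. Depth did not limit the constitutive genes, whereas PSMB8 had 14 to 54 counts per library.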
